A study of Homo sapiens with 18 samples.

Results

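The response of MM1R cells to RSL3 was measured by RNA sequencing in 6 of the 18 libraries of the series, 3 from untreated cells and 3 from cells given 5 µM RSL3 for 3 h, with the members chosen by their labels. MM1R is a human multiple myeloma line that resists glucocorticoids and carries little glucocorticoid receptor. It is a single line grown in culture, so the 3 libraries of a group stand for passages 4, 6 and 7 (P4, P6 and P7) of 1 population and not for different donors, and p-values measure the spread between these passages. Each passage gave 1 untreated and 1 RSL3 library, and no ferrostatin-1 was added to either group. The control is labelled as untreated, and the labels do not say whether the RSL3 solvent was added to it. The remaining libraries hold MM1R cells given ferrostatin-1 before RSL3 and the 3 matching treatments of MM1S cells, the glucocorticoid-sensitive counterpart of the line.

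RSL3 binds and inactivates GPX4, the selenium-containing enzyme that uses glutathione to reduce lipid hydroperoxides in membranes. Cells that lose this activity accumulate iron-dependent lipid peroxides and can die by ferroptosis. Cells under oxidative, electrophilic or proteotoxic stress commonly switch on a few known programmes, namely the heat shock genes under HSF1, the antioxidant genes under NRF2, the amino acid and stress genes under ATF4 and CHOP, the metallothioneins under the zinc sensor MTF1, and the immediate early genes that follow kinase signalling. Myeloma cells secrete large amounts of immunoglobulin and carry a high load of protein folding in the endoplasmic reticulum.

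Total counts per library lay between 17817681 and 18962868, and replicate libraries differed by more than sampling noise. NR3C1, the glucocorticoid receptor gene, lay between 13.7 and 22.7 CPM (counts scaled by the size of each library) in the 6 libraries and at 92.1 CPM or more in every MM1S library. Plasma cell genes were expressed as labelled, with IRF4 at 1129, 1201 and 960.4 CPM untreated and 885, 961 and 565 CPM with RSL3. Markers of other cell types were low, and their summed level reached at most 52.3 CPM for B cells, 27.7 CPM for stromal and endothelial cells, 23.4 CPM for myeloid cells, 12.6 CPM for erythroid cells and 11.9 CPM for T cells. MS4A1, CD3G, S100A8, COL1A2, COL3A1, CDH5 and HBA2 had 0 counts in all 6 libraries.

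RSL3 raised many more transcripts than it lowered within 3 h. Of the 13325 genes tested, 392 (2.94%) were differentially expressed genes (DEGs), which required both a change of more than 2-fold and an FDR below 0.05 in edgeR's quasi-likelihood test with the passage as a block and Benjamini-Hochberg adjustment, which gave all FDR values below. Levels are listed in the order P4, P6 and P7, and a value printed before an FDR in brackets is a log2 fold change. Of these, 336 (2.52%) were higher and 56 (0.42%) were lower with RSL3. The 3 RSL3 libraries lay wholly above the 3 untreated libraries for 296 of the 336 genes and wholly below them for 51 of the 56, where 13.6% and 12.9% of all tested genes did so. The upregulated genes reached far larger changes. A rise of more than 4-fold was fitted for 82 genes and of more than 16-fold for 16, whereas 3 genes fell by more than 4-fold and none by more than 8-fold. The genes called higher made up a summed 15320, 16146 and 17142 CPM in the untreated libraries of P4, P6 and P7 and 50537, 31752 and 81839 CPM in the RSL3 libraries. Each library averages over a whole culture, so a change in some of the cells and a smaller change in all of them cannot be told apart. At an FDR under 0.05 without the fold threshold the directions were nearly even, with 915 genes higher and 753 lower, and the median log2 fold change over all tested genes was -0.00082.

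**Figure D1:**
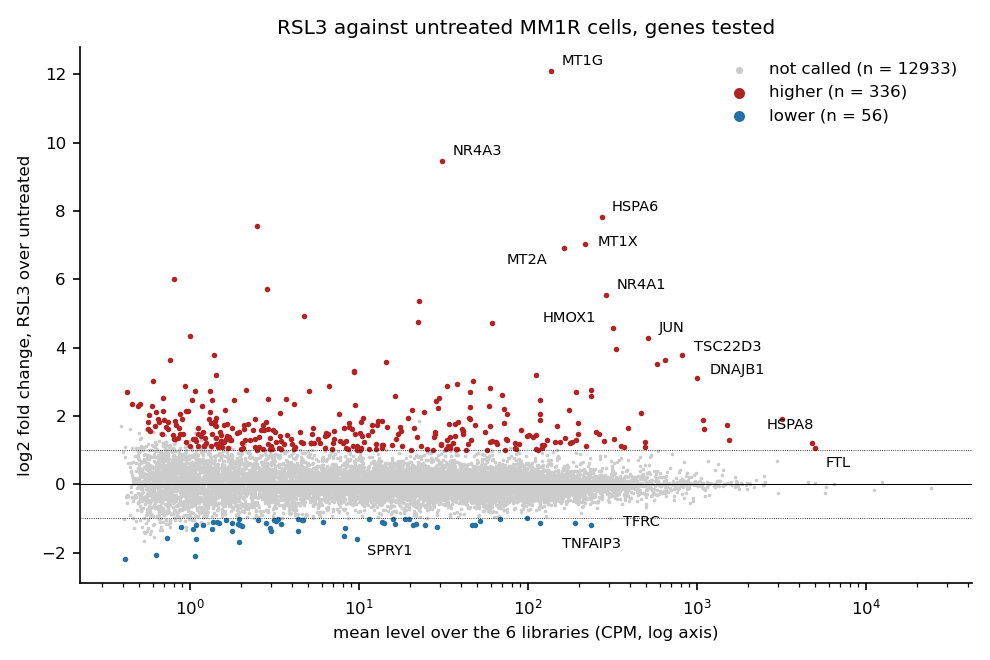
Log2 fold change (RSL3 over untreated) against the mean level over the 6 libraries in CPM (log axis), 1 point a gene for the 13325 genes tested, with the 336 genes called higher in red, the 56 called lower in blue and dotted lines at a 2-fold change. The points called higher extend to 12.09 (MT1G), while those called lower end at -2.19 (WTIP, under 1 CPM in every library).

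The number of DEGs depended on the passages in the fit. Without P4 there were 115 DEGs, without P6 542 and without P7 317, and without the passage as a block there were 240. Each fit without a passage keeps 1 residual degree of freedom and estimates its own spread. Without P6 the edgeR FDR of MT1G was 7.35e-275, against 1.79e-06 in the main analysis. Calls gained or lost in such a fit can therefore not be assigned to the passage left out alone. The response was weakest in P6. Within a passage, 377 genes rose more than 2-fold in P4, 92 in P6 and 363 in P7, taking the ratio of CPM with 1 added to both sides, and 104, 10 and 50 genes fell more than 2-fold. The median log2 ratio of the 336 genes called higher was 1.27 in P4, 0.76 in P6 and 1.37 in P7. P7 gave the largest of the 3 ratios for 185 of these genes, P4 for 136 and P6 for 15, yet 334 of the 336 genes had a ratio above 0 in P6 as well. The genes called lower had median log2 ratios of -1.06, -0.74 and -0.93, and all 56 were below 0 in each passage. These genes were called on the same libraries, so the counts describe how the response was distributed and do not test it.

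**Figure D2:**
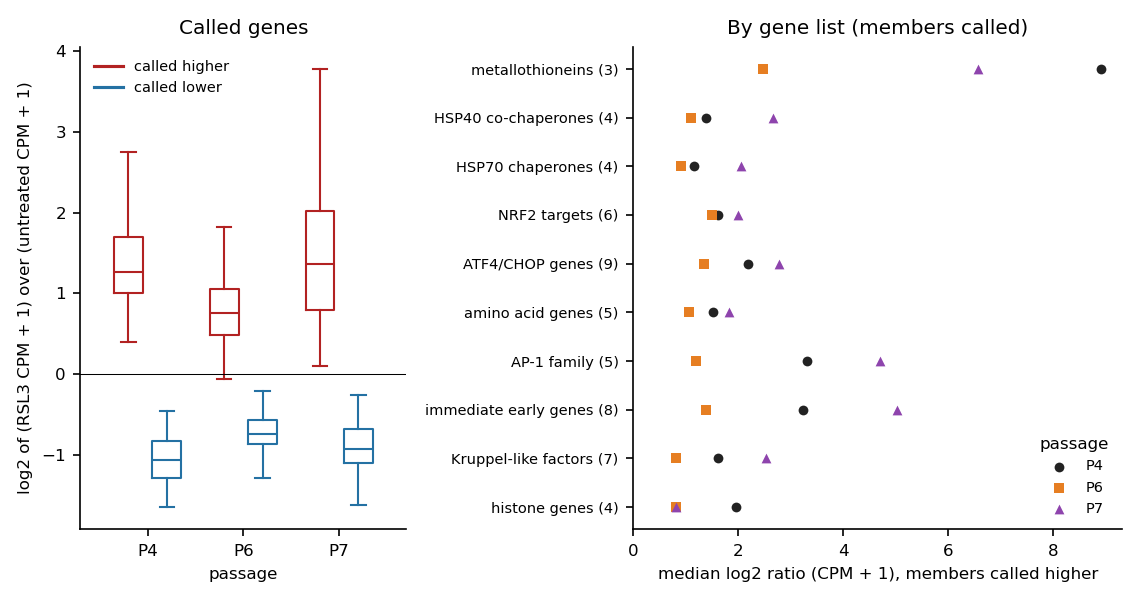
Left, log2 ratios of (CPM + 1) in RSL3 over untreated libraries within P4, P6 and P7 for the genes called higher (red) and lower (blue), with the box from the lower to the upper quartile, the line at the median and whiskers to the most distant gene within 1.5 box lengths. Right, the median ratio in each passage of the members called higher in 10 gene lists, with P6 lowest in all 10 lists and the metallothioneins and histone genes highest in P4.

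The largest fitted change of the comparison was that of a metallothionein gene. Metallothioneins are small cysteine-rich proteins that bind zinc and copper and scavenge oxidants, and their genes lie in a cluster on chromosome 16. MT1G (hg19 chromosome 16, 56700642 to 56701977) had 0, 1 and 2 counts in the untreated libraries and stood at 620.1, 6.17 and 193 CPM in the RSL3 libraries of P4, P6 and P7, where its total of 15159 counts against 3 is a ratio of 5075 (95% exact interval for counting error 1736 to 24614, FDR = 1.79e-06). This FDR was the smallest of the comparison. MT1G passed the filter on low counts only through its RSL3 libraries, so it had to differ. MT1X (chromosome 16, 56716382 to 56718108) stood at 1.03, 1.56 and 3.12 CPM untreated and 941, 13.2 and 349.5 CPM with RSL3 (log2 fold change 7.04 ± 0.91, FDR = 0.00235). MT2A (chromosome 16, 56642496 to 56643409) stood at 0.517, 1.88 and 1.65 CPM untreated and 726, 6.59 and 249 CPM with RSL3 (log2 fold change 6.93 ± 1.18, FDR = 0.00692). For all 3 genes the RSL3 libraries lay above the untreated ones, and P4 gave the largest and P6 by far the smallest rise. Without P4, the FDR of MT2A was 0.098 and its call was lost, while MT1G and MT1X kept theirs.

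Of the 13 metallothionein genes listed, 4 passed the filter on low counts and 3 of these were DEGs. A gene that passed only through its RSL3 libraries had to differ, so this share is no measure of the family. Without P6, 7 passed the filter and 6 were called. The members that were filtered out followed the order of the passages seen in MT1X. MT1H had 0 counts in each untreated library and 848, 4 and 220 with RSL3, MT1F 0, 2 and 0 against 562, 4 and 147, MT1E 0 in each against 154, 0 and 37, and MT1M 0 in each against 23, 0 and 5. MT3 and MT4 had 0 counts throughout. Metallothionein genes resemble each other closely in sequence and the counting tool is not given in the sources used here, so reads may have been split between members. Among 16 zinc transporter genes tested, 1 was a DEG, against 2.94% of all tested genes. It was SLC30A1, the zinc exporter of the plasma membrane and itself a target of MTF1, at 323, 285 and 216 CPM untreated and 1035, 315 and 791 CPM with RSL3 (log2 fold change 1.25 ± 0.27, FDR = 0.0191), where the level of P6 with RSL3 lay below that of P4 without it. Its call was lost without P4 (FDR = 0.18) and without P7 (FDR = 0.087).

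The promoters of MT1X and MT2A are shown because these genes had among the largest changes and hold several metal response elements, the sites at which MTF1 binds. Each run covers 250 bases before and 50 after the transcription start (RefSeq, GRCh38.p14, chr16:56682220-56682519 and chr16:56608334-56608633, plus strand), with the letters TGCGCNC or TGCACNC on either strand in capitals. MT1X holds 4 such sites and MT2A 8.
MT1X: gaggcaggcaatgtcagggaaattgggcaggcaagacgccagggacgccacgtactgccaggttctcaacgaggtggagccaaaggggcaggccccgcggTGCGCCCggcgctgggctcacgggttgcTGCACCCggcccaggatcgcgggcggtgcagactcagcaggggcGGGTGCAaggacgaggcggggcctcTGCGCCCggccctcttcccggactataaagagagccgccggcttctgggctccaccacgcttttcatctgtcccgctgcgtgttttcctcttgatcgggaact
MT2A: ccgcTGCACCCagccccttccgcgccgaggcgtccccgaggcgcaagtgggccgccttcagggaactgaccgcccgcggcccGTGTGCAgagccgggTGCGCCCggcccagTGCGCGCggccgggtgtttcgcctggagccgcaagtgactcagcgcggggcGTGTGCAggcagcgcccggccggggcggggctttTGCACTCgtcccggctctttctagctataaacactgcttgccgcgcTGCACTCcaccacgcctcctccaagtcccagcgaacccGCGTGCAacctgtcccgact

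Among the cytosolic heat shock genes, HSPA6, HSPA8 and DNAJB1 rose, with the largest ratio in P7. HSP70 chaperones bind unfolded stretches of proteins, HSP40 (DNAJ) co-chaperones deliver substrates to them, and HSP110 members release their nucleotide. HSPA6 (chromosome 1, 161494330 to 161496684), an HSP70 gene that is nearly silent without stress, stood at 1.08, 1.77 and 1.31 CPM untreated and 174, 90.8 and 1367 CPM with RSL3 (log2 fold change 7.82 ± 0.64, FDR = 3.77e-04). HSPA8 (chromosome 11, 122928197 to 122933938), the constitutive HSP70 gene, went from 2324, 3023 and 3120.4 CPM to 4985, 5286 and 10101 CPM (log2 fold change 1.20 ± 0.15, FDR = 0.0022). DNAJB1 (chromosome 19, 14625581 to 14671203), the main co-chaperone induced by heat, went from 141, 176 and 161 CPM to 889, 784 and 3847 CPM (log2 fold change 3.10 ± 0.38, FDR = 0.00195). In each of these genes all RSL3 libraries exceeded all untreated ones, and the P7 library was the highest. HSPA8 fell below the fold threshold without P7 (log2 fold change 0.96).

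Of 11 HSP70 and HSP110 genes tested, 4 were called higher, the others being HSPH1, the HSP110 gene (1.48, FDR = 0.00622), and HSPA13 (1.23, FDR = 7.61e-04). The share of all tested genes called higher, to be set beside this and the next 3 counts, was 2.52%. Of 15 DNAJ genes, 4 were called higher, with log2 fold changes of 2.24 for DNAJB4, 1.30 for DNAJB9, which serves the endoplasmic reticulum, and 1.06 for DNAJB2. The HSP90 and chaperonin list had 2 calls among 21 genes. HSP90AA1, the stress-inducible cytosolic HSP90, was at 492, 593 and 765 CPM untreated and 1477, 1272 and 4378 CPM with RSL3 (log2 fold change 1.73 ± 0.22, FDR = 0.00202), and CHORDC1, a co-chaperone, was at 2.47 CPM or less in all libraries (1.13, FDR = 0.0328). In the list that holds the small heat shock and BAG proteins, 3 of 10 genes were called higher, among them BAG3, an exchange factor that directs HSP70 clients to autophagy (2.18, FDR = 0.00458), and HSPB1, a small heat shock protein (1.38, FDR = 0.0133). No gene of these 4 lists was called lower, and every member called higher had its largest ratio in P7. Without P4 the calls of HSPH1 (FDR = 0.058), DNAJB4 (FDR = 0.051), DNAJB2 (log2 fold change 0.96), CHORDC1 (FDR = 0.1) and HSPB1 (FDR = 0.14) were lost, and without P7 those of DNAJB2, CHORDC1, HSPA8 and HSPB1. CHORDC1 was not called without P6 either (FDR = 0.13).

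HSPA1B, a stress-inducible HSP70 gene, was listed in several numbered copies. Of these, HSPA1B_2 stood at 3.41, 3.54 and 3.58 CPM untreated and 55.8, 58 and 240.3 CPM with RSL3 (log2 fold change 4.73 ± 0.35, FDR = 2.69e-04), and HSPA1B_1 (4.74) and HSPA1B_4 (4.92) had like log2 fold changes. The copies are nearly identical in sequence and share reads, so the level of each is uncertain. The same holds for HSPA7, a near copy of HSPA6, which had 1 count over the untreated libraries and 267 over the RSL3 libraries (ratio 268, 95% exact interval 47.7 to 10632). HSPA7 passed the filter on low counts only through its RSL3 libraries, so it had to differ.

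The promoters of HSPA6 and HSPA8 are shown to set a gene nearly silent before treatment beside one already expressed. Both hold 2 heat shock elements, searched as GAANNTTC on either strand and printed in capitals (RefSeq, GRCh38.p14, chr1:161524290-161524589 on the plus strand and chr11:123062087-123062386 on the minus strand).
HSPA6: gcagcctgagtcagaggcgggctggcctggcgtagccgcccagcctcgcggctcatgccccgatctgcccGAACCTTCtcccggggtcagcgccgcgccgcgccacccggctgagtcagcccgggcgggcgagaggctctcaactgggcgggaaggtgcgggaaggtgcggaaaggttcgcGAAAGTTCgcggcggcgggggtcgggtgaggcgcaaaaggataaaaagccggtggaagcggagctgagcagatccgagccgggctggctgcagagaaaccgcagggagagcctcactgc
HSPA8: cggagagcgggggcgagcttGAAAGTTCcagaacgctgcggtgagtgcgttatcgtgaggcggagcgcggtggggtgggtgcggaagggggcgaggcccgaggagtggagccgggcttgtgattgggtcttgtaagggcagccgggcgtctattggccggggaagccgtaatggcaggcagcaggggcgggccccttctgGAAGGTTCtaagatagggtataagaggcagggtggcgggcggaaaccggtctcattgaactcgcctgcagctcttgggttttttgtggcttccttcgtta

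**Figure D3:**
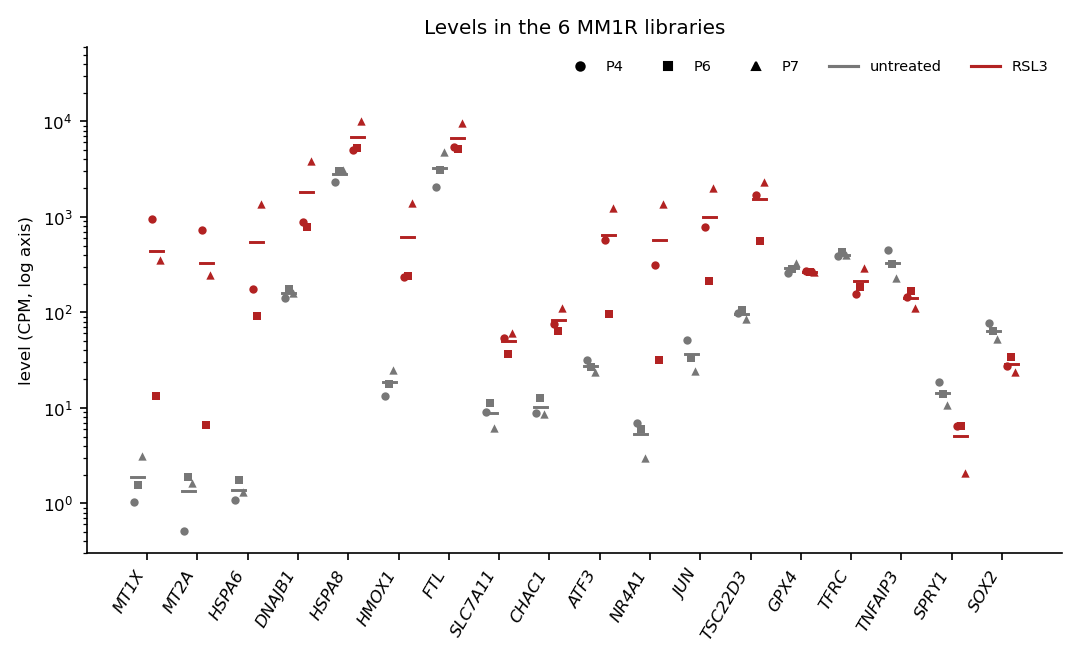
CPM (log axis) of 18 genes in the 3 untreated (grey) and 3 RSL3 (red) libraries, with circles for P4, squares for P6, triangles for P7 and a bar at the mean of each group. The groups are apart in all genes but GPX4, the P6 square is the lowest RSL3 point in both metallothioneins and in NR4A1, and the P7 triangle is the highest in the heat shock genes.

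Genes of the NRF2 pathway rose in part. NRF2 binds antioxidant response elements and drives glutathione synthesis, quinone detoxification and heme breakdown. Of 25 target genes tested, 6 were called higher, 0 lower and 10 had an FDR under 0.05 and a positive change. Over all 13325 genes tested, 336 were called higher and 915 had an FDR under 0.05 and a positive change. HMOX1 (chromosome 22, 35776354 to 35790207), heme oxygenase, which frees iron from heme, stood at 13.4, 17.5 and 24.9 CPM untreated and 235, 239 and 1385 CPM with RSL3 (log2 fold change 4.56 ± 0.34, FDR = 2.69e-04). The P4 and P6 libraries with RSL3 nearly coincided and that of P7 lay far above them. OSGIN1, an oxidative stress response gene, stood at 1.29, 1.4 and 1.14 CPM untreated and 7.05, 6.59 and 12.9 CPM with RSL3 (log2 fold change 2.73 ± 0.25, FDR = 6.02e-04), SRXN1, the sulfiredoxin that restores peroxiredoxins, at 89, 98.4 and 128 CPM untreated and 171, 258 and 314 CPM with RSL3 (log2 fold change 1.21 ± 0.11, FDR = 5.20e-04), and GCLM, the modifier subunit of glutamate-cysteine ligase, at 21.5, 20.4 and 22.4 CPM untreated and 38.8, 48.8 and 45.5 CPM with RSL3 (log2 fold change 1.04 ± 0.12, FDR = 0.00134). For GCLM and SRXN1 the largest ratio was in P6, unlike most DEGs. GCLM stood at a log2 fold change of 0.92 without P6.

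Other target genes passed the FDR but not the fold threshold, such as the catalytic subunit GCLC (0.75, FDR = 0.00253), the thioredoxin reductase TXNRD1 (0.68, FDR = 0.00458) and the quinone reductase NQO1 (0.90, FDR = 0.00696). Among 11 regulators of the pathway, 3 were called higher, the repressors BACH1 (1.45, FDR = 0.00461) and BACH2 (1.43, FDR = 0.0097) and the small MAF gene MAFF (1.38, FDR = 0.0162). All 3 lost their call without P4, at FDR values of 0.055, 0.052 and 0.13, and MAFF also without P7 (log2 fold change 0.90). NFE2L2, which encodes NRF2, had a log2 fold change of 0.53, FDR = 0.0258, and KEAP1, its inhibitor, of 0.12, FDR = 0.429. Of 21 genes of glutathione synthesis and use, 4 were called higher. They were GCLM, CHAC1 and the cystine transporter genes SLC7A11 and SLC3A2. Of 16 thioredoxin and peroxiredoxin genes, 1 (SRXN1) was a DEG. For these 3 lists, the share of all tested genes called higher was 2.52%.

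Genes of iron storage and iron uptake had changes of opposite sign. Ferritin stores iron in a shell of light and heavy chains, and the transferrin receptor takes it up. FTL (chromosome 19, 49468566 to 49470136), the light chain gene, was at 2029, 3085 and 4716 CPM untreated and 5395, 5087 and 9519 CPM with RSL3 (log2 fold change 1.05 ± 0.13, FDR = 0.00202). Its levels with RSL3 all exceeded those without, but the untreated P7 library lay close to the RSL3 library of P6, and the call was lost without the passage as a block (FDR = 0.12) and without P4 (log2 fold change 0.87). FTH1, the heavy chain gene, was at 38.2, 39.4 and 30.7 CPM untreated and 51.2, 37.5 and 50.3 CPM with RSL3 (log2 fold change 0.35 ± 0.15, FDR = 0.142) with overlapping groups. FTH1 stood far below FTL, and its level is uncertain because the counting tool is not given in the sources used here. TFRC (chromosome 3, 195739382 to 195809024), the transferrin receptor gene, was at 387, 425 and 395 CPM untreated and 155, 186 and 292 CPM with RSL3 (log2 fold change -0.99 ± 0.15, FDR = 0.00486), just inside the fold threshold and so not a DEG, with no overlap between the groups, and it passed both thresholds without P7 (log2 fold change -1.25). Of 23 genes of iron and heme handling tested, HMOX1 and FTL were the only DEGs, and the median log2 fold change of the list was -0.09. DEGs made up 2.94% of all tested genes.

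Among the genes that execute or restrain ferroptosis, the gene called was SAT1, where 2.94% of all tested genes were called. GPX4 (chromosome 19, 1103981 to 1106790), the target of RSL3, was at 256, 284 and 325 CPM untreated and 269, 266 and 264 CPM with RSL3 (log2 fold change -0.11 ± 0.10, FDR = 0.524), and its groups overlapped. Of 20 genes of lipid peroxidation and ferroptosis tested, 1 was a DEG, 9 had an unadjusted p under 0.05, a threshold passed by 28.7% of all tested genes, and DESeq2 and limma-voom each called 1. The DEG was SAT1 (chromosome X, 23801290 to 23804327), the polyamine acetyltransferase whose expression favours lipid peroxidation, at 21.3, 21 and 19.8 CPM untreated and 97.8, 36.5 and 235 CPM with RSL3 (log2 fold change 2.20 ± 0.40, FDR = 0.00936). Its P6 library rose least, and its call was lost without P4 (FDR = 0.11). AIFM2, which encodes the ferroptosis suppressor FSP1, passed the FDR but not the fold threshold (0.56, FDR = 0.00936), as did CYB5R1 (0.35, FDR = 0.0368) and VKORC1L1 (-0.35, FDR = 0.0432). ACSL4, which loads polyunsaturated fatty acids into lipids, was at 70.6, 74.3 and 59.5 CPM untreated and 49.6, 60.8 and 57.5 CPM with RSL3 (-0.28, FDR = 0.133). PTGS2, often used as a marker of ferroptosis, was filtered out for low counts and had 0, 5 and 6 counts untreated and 40, 4 and 68 with RSL3. None of the 12 selenoprotein genes tested was a DEG by edgeR, DESeq2 or limma-voom, and 3 had an unadjusted p under 0.05, a share no higher than that of all tested genes. All 3 also had an FDR under 0.05 with a positive change, against 915 of the 13325 genes tested.

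Among the lists with at least 10 genes tested, that of ATF4 and CHOP genes held the highest share of DEGs in the main analysis. Without P4 its count fell to 5 of 16, and without P6 the AP-1 family stood above it, with 7 of 12 genes against 9 of 16. ATF4 is translated when eIF2alpha is phosphorylated and induces genes of amino acid supply, redox control and feedback. Of 16 genes tested, 9 were called higher and 0 lower, 12 had an FDR under 0.05 with a positive change, and the median log2 fold change was 1.35. Over all 13325 genes tested, 336 were called higher and 915 had an FDR under 0.05 with a positive change. CHAC1 (chromosome 15, 41245160 to 41248710), which degrades glutathione, was at 8.89, 12.7 and 8.69 CPM untreated and 76.2, 64.4 and 111 CPM with RSL3 (log2 fold change 3.03 ± 0.21, FDR = 2.51e-04). DDIT3, which encodes CHOP, was at 10.2, 7.41 and 7.1 CPM untreated and 70.6, 20.7 and 54.6 CPM with RSL3 (log2 fold change 2.43 ± 0.25, FDR = 8.39e-04). DDIT4, an inhibitor of mTORC1, was at 29.2, 33.1 and 37.3 CPM untreated and 136, 136 and 331 CPM with RSL3 (log2 fold change 2.47 ± 0.19, FDR = 3.27e-04). ATF3 (chromosome 1, 212738676 to 212794119), a repressor induced by many stresses, was at 31.3, 26.6 and 23.8 CPM untreated and 577, 96.7 and 1242 CPM with RSL3 (log2 fold change 3.96 ± 0.60, FDR = 0.00427), and CEBPB, a partner of CHOP, was at 7.03, 6.92 and 6.53 CPM untreated and 28.2, 13.9 and 25.3 CPM with RSL3 (log2 fold change 1.66 ± 0.20, FDR = 0.00164). All RSL3 libraries lay above the untreated ones for these 5 genes. ATF4 itself, which is controlled mainly at translation, was at 484, 515 and 495 CPM untreated and 947, 853 and 964 CPM with RSL3 (0.88, FDR = 9.56e-04) and missed the fold threshold. TRIB3, a pseudokinase that feeds back on ATF4, was at 64.1, 60.8 and 62 CPM untreated and 105, 87 and 70.4 CPM with RSL3 (0.47, FDR = 0.0299). The call of ATF3 was lost without P4 (FDR = 0.079).

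PPP1R15A, which encodes GADD34 and restores translation by recruiting a phosphatase to eIF2alpha, was at 52.1, 35.2 and 37.3 CPM untreated and 352, 91.3 and 589.6 CPM with RSL3 (log2 fold change 2.71 ± 0.38, FDR = 0.0033), with an FDR of 0.06 without P4. Its promoter is shown for the single cAMP response element that it holds near the start, TGACGTCA in capitals (RefSeq, GRCh38.p14, chr19:48872171-48872470, plus strand).
PPP1R15A: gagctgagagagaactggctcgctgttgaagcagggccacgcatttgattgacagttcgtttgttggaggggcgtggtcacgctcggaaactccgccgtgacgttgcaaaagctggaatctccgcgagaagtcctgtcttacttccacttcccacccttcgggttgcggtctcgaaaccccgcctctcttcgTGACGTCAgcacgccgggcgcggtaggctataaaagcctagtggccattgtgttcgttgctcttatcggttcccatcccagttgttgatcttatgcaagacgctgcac

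Genes of amino acid transport and synthesis followed, with 5 of 19 called higher, 14 at an FDR under 0.05 with a positive change, and a median log2 fold change of 0.71. The matching counts over all 13325 genes tested were 336 and 915. SLC7A11 (chromosome 4, 139085251 to 139163503), the light chain of the cystine-glutamate exchanger that supplies cysteine for glutathione, was at 9.09, 11.3 and 6.08 CPM untreated and 54.3, 36.6 and 60.8 CPM with RSL3 (log2 fold change 2.51 ± 0.25, FDR = 7.55e-04). SLC3A2, its heavy chain, was at 117, 129 and 141 CPM untreated and 403, 279 and 455 CPM with RSL3 (log2 fold change 1.53 ± 0.13, FDR = 4.19e-04), and CTH, which makes cysteine from cystathionine, was at 4.75, 4.24 and 3.41 CPM untreated and 15.6, 9.94 and 14.6 CPM with RSL3 (log2 fold change 1.67 ± 0.19, FDR = 0.0012). All 3 kept their call without any 1 passage. The other DEGs, ASNS (1.38, FDR = 0.0203) and SLC38A2 (1.10, FDR = 0.0227), had overlapping groups and lost their call without P4, without P7 and without the passage as a block. Of 20 aminoacyl-tRNA synthetase genes, which also respond to ATF4, 0 were DEGs by edgeR, DESeq2 or limma-voom. Of these 20, 9 had an unadjusted p under 0.05 (28.7% of all tested genes did) and 3 an FDR under 0.05 (1668 of the 13325 did). In the unfolded protein response of the endoplasmic reticulum, 1 of 21 genes was a DEG, against 2.94% of all tested genes. It was HERPUD1, which takes part in the removal of misfolded proteins, at 1042, 857 and 743 CPM untreated and 2242, 1610.3 and 2792 CPM with RSL3 (log2 fold change 1.31 ± 0.17, FDR = 0.00223). HSPA5, the chaperone BiP of this compartment, was at 1218, 1258 and 1157 CPM untreated and 1533, 1685 and 1656 CPM with RSL3 (0.42, FDR = 0.0167).

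**Figure D4:**
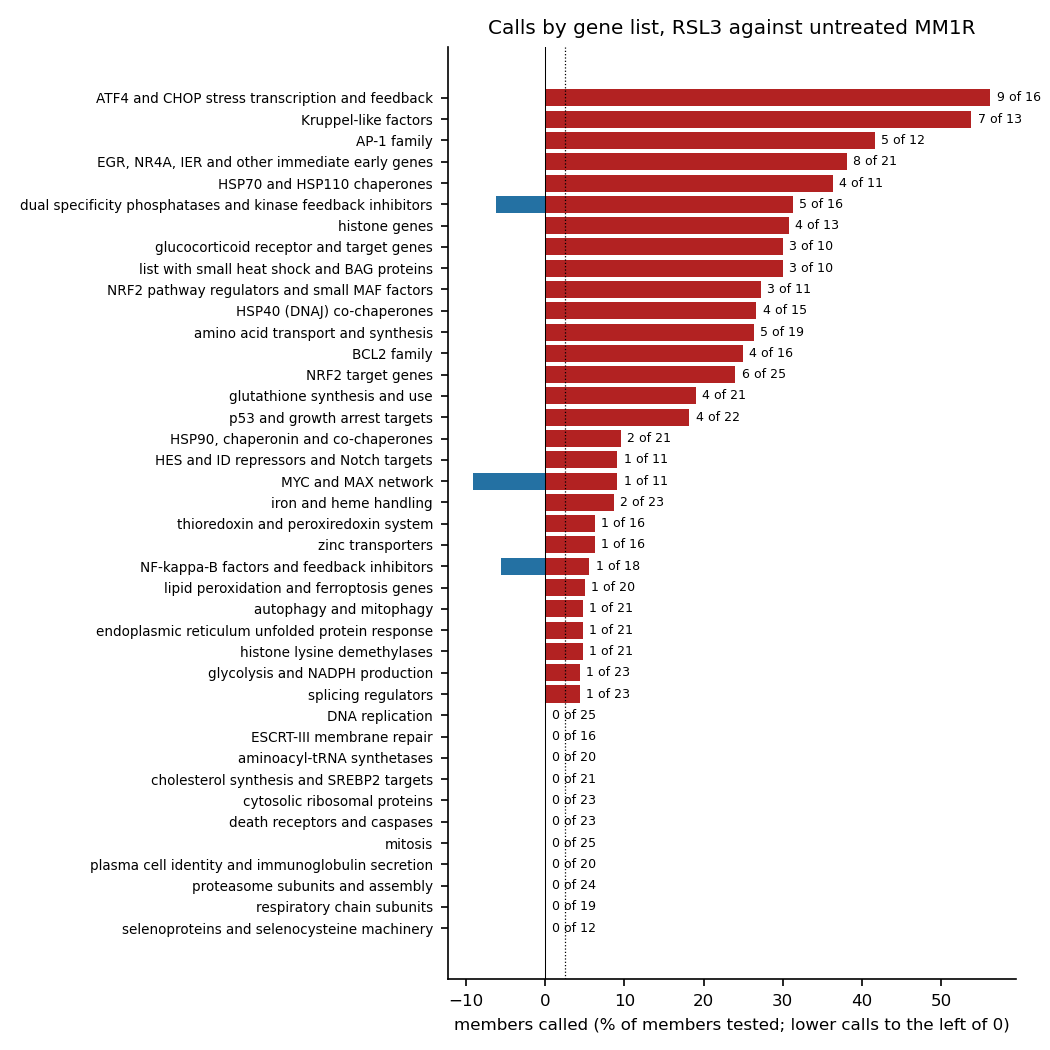
Share of the tested members of each gene list called higher (red, to the right) or lower (blue, to the left of 0), for lists with at least 10 members tested, with the number called higher of the number tested beside each bar. The dotted line marks the 2.52% of all tested genes called higher, and the list of ATF4 and CHOP genes stands highest with 9 of 16.

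Immediate early genes, which are transcribed within minutes of a signal without new protein, were called higher in part, among them the 3 NR4A genes. NR4A receptors are orphan nuclear receptors. NR4A1 (chromosome 12, 52416616 to 52453291) was at 6.92, 6.01 and 3.01 CPM untreated and 313, 31.5 and 1372 CPM with RSL3 (log2 fold change 5.53 ± 0.99, FDR = 0.00866), and NR4A2 was at 0.878, 0.644 and 0.568 CPM untreated and 18.7, 2.55 and 113 CPM with RSL3 (log2 fold change 5.36 ± 0.69, FDR = 0.0022). NR4A3 (chromosome 9, 102584137 to 102629173) had 4 counts over the 3 untreated libraries and 3349 over the RSL3 libraries, a ratio of 841 (95% exact interval for counting error 328 to 3088, FDR = 6.79e-05), with 29.9, 1.54 and 155 CPM in P4, P6 and P7. NR4A3 passed the filter on low counts only through its RSL3 libraries, so it had to differ. The rise spanned a wide range between passages in each of the 3 NR4A genes and was smallest in P6 and largest in P7. Without P4, NR4A1 (FDR = 0.12) and NR4A2 (FDR = 0.052) lost their call. RGS1, a GTPase activator that ends G protein signalling, was at 108, 71.3 and 57.3 CPM untreated and 921, 409 and 1906 CPM with RSL3 (log2 fold change 3.52 ± 0.40, FDR = 0.00134), and RHOB, a short-lived GTPase, at 72.3, 77.2 and 71.8 CPM untreated and 986, 318 and 2342 CPM with RSL3 (log2 fold change 3.63 ± 0.46, FDR = 0.00215). In all, 8 of 21 genes of this list, NR4A3 among them, were called higher and 0 lower, against 2.52% and 0.42% of all tested genes. Without P4 the count was 3, of NR4A3, RGS1 and RHOB. EGR1, often the first gene of this class to respond, was at 3.05, 1.4 and 0.227 CPM untreated and 2.62, 1.17 and 2.7 CPM with RSL3 (0.54, FDR = 0.53) with overlapping groups.

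In the AP-1 family, whose JUN and FOS proteins pair to bind DNA, 5 of 12 genes were called higher, against 2.52% of all tested genes. JUN (chromosome 1, 59242517 to 59249720) was at 51.1, 33.3 and 24.1 CPM untreated and 773, 214 and 1999.9 CPM with RSL3 (log2 fold change 4.27 ± 0.58, FDR = 0.00268), FOSL2 at 16, 15.8 and 15.1 CPM untreated and 168, 37.4 and 418 CPM with RSL3 (log2 fold change 3.18 ± 0.53, FDR = 0.00658) and JUND at 92.1, 90.7 and 61.6 CPM untreated and 406, 126 and 410.5 CPM with RSL3 (log2 fold change 1.80 ± 0.34, FDR = 0.0103). FOSB also passed (2.34, FDR = 0.0224) with overlapping groups, and ATF3 is counted in this list too. FOS varied so widely without treatment, at 24.7, 7.51 and 1.42 CPM against 47.6, 13 and 41.9 CPM with RSL3, that it was not a DEG (log2 fold change 1.86 ± 0.58, FDR = 0.0655). Without P4, JUN kept its call, while FOSL2 (FDR = 0.1), JUND (FDR = 0.13) and FOSB (FDR = 0.15) lost theirs, as did ATF3, which left 1 of the 5 calls. Of 13 Kruppel-like factor genes, which encode zinc finger regulators of growth and differentiation, 7 were called higher and 3 had an FDR under 0.05 with a fall. The matching counts over all 13325 genes tested were 336 and 753. KLF6 was at 175, 144 and 133 CPM untreated and 679, 274 and 1371 CPM with RSL3 (log2 fold change 2.08 ± 0.36, FDR = 0.00719), KLF3 at 76.4, 69.6 and 55.9 CPM untreated and 233, 132 and 328 CPM with RSL3 (log2 fold change 1.69 ± 0.24, FDR = 0.00332), KLF9 at 7.75, 7.94 and 5.28 CPM untreated and 48.1, 14.7 and 40.3 CPM with RSL3 (log2 fold change 2.17 ± 0.32, FDR = 0.00411) and KLF7 at 25.9, 18.9 and 18.4 CPM untreated and 53.8, 32.8 and 52.1 CPM with RSL3 (log2 fold change 1.12 ± 0.14, FDR = 0.00223). Without P4, KLF7 alone of the 7 was called, with KLF6 at an FDR of 0.088, KLF3 at 0.052 and KLF9 at 0.078, and without P7 the count was 5. KLF7 stood at a log2 fold change of 0.93 without P7. All 8 immediate early genes, 5 AP-1 genes and 7 Kruppel-like factor genes called higher had their largest ratio in P7.

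Dual specificity phosphatases and related inhibitors, which switch off MAP kinases, went both ways. Of 16 genes, 5 were called higher and 1 lower, against 2.52% and 0.42% of all tested genes. The count higher was 1 without P4, 2 without P7 and 3 without the passage as a block, and the count lower was 3 without P6. DUSP5, a nuclear phosphatase of ERK, was at 571, 536 and 465 CPM untreated and 1582, 1119 and 2308 CPM with RSL3 (log2 fold change 1.61 ± 0.19, FDR = 0.00171). DUSP1 (chromosome 5, 172195099 to 172198198), which acts on p38 and JNK, was at 26.7, 17.6 and 10.1 CPM untreated and 88.3, 43.2 and 165 CPM with RSL3 (log2 fold change 2.30 ± 0.42, FDR = 0.00936) and had an FDR of 0.072 without P4. SPRY1 (chromosome 4, 124317950 to 124324915), an inhibitor of receptor tyrosine kinase signalling, was the gene that fell, at 18.7, 13.8 and 10.8 CPM untreated and 6.51, 6.43 and 2.08 CPM with RSL3 (log2 fold change -1.59 ± 0.22, FDR = 0.00269), with all RSL3 libraries below all untreated ones. The promoter of DUSP1 is shown because it holds 1 cAMP response element, TGACGTCA in capitals, as does that of PPP1R15A (RefSeq, GRCh38.p14, chr5:172771146-172771445, minus strand).
DUSP1: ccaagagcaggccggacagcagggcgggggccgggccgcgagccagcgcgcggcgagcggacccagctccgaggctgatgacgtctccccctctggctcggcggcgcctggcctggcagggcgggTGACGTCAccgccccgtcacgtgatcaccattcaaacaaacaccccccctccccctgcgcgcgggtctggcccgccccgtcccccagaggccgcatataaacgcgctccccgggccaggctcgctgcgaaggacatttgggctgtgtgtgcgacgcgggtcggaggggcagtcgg

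Genes known as targets of the glucocorticoid receptor were examined because the line carries little of it. Of 10 genes tested, 3 were called higher and 0 lower, against 2.52% and 0.42% of all tested genes. TSC22D3 (chromosome X, 106956451 to 107020572), which encodes GILZ, was at 97.7, 104 and 84.4 CPM untreated and 1695, 554 and 2339.5 CPM with RSL3 (log2 fold change 3.79 ± 0.38, FDR = 7.61e-04) and kept its call in all 22 alternative fits. The other members called were KLF9 and DUSP1, described above, which both lost their call without P4. NR3C1 itself had a log2 fold change of 0.42, FDR = 0.0645.

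Of the death genes of the BCL2 family, 4 BH3-only members rose. BH3-only proteins bind and neutralize the anti-apoptotic members of the BCL2 family. Of 16 BCL2 family genes, these 4 were called higher and 0 lower, where 2.52% of all tested genes were called higher and 0.42% lower. PMAIP1 (NOXA) was at 8.89, 7.14 and 7.16 CPM untreated and 30.3, 18.3 and 45.4 CPM with RSL3 (log2 fold change 1.93 ± 0.22, FDR = 0.00123), BCL2L11 (BIM) at 226, 164 and 139 CPM untreated and 772, 272 and 772 CPM with RSL3 (log2 fold change 1.66 ± 0.26, FDR = 0.00461), BBC3 (PUMA) at 19.3, 14 and 12.8 CPM untreated and 88.3, 22.4 and 74 CPM with RSL3 (log2 fold change 1.83 ± 0.29, FDR = 0.00502) and HRK at 0.155, 0.161 and 0.284 CPM untreated and 1.76, 0.638 and 1.12 CPM with RSL3 (log2 fold change 2.52 ± 0.46, FDR = 0.00946), the last at low counts. HRK passed the filter on low counts only through its RSL3 libraries, so it had to differ. PMAIP1 kept its call without any 1 passage, whereas without P4 the others did not (BCL2L11 FDR = 0.077, BBC3 FDR = 0.091, HRK FDR = 0.12). MCL1, the main survival gene of myeloma cells, was at 666, 597 and 462 CPM untreated and 907, 654 and 844 CPM with RSL3 (0.48, FDR = 0.0398). Of 22 p53 and growth arrest targets, 4 were called higher, PMAIP1, BBC3, SESN3 (1.20, FDR = 7.52e-04) and GADD45G (1.76, FDR = 0.00382). CDKN1A, the CDK inhibitor p21, was at 216, 281 and 330.4 CPM untreated and 280.4, 288 and 454 CPM with RSL3 (0.29, FDR = 0.0995). None of 23 death receptor and caspase genes and none of 6 CDK inhibitor genes was a DEG by edgeR, DESeq2 or limma-voom, with 11 and 3 at an unadjusted p under 0.05 (28.7% of all tested genes). Without P6, edgeR called 1 gene of each list higher.

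Inflammatory and NF-kappa-B genes were called in both directions, where 2.52% of all tested genes were called higher and 0.42% lower. Of 26 inflammatory and cytokine genes listed, 8 passed the filter, with TNFSF9 (1.61, FDR = 0.0115) and IL23A (1.39, FDR = 0.0101) called higher, both calls lost without P4 (FDR = 0.11 and 0.12), and TNFAIP3 called lower. TNFAIP3 (chromosome 6, 138188351 to 138204451), which encodes A20, a feedback inhibitor of NF-kappa-B, was at 444, 317 and 230.5 CPM untreated and 146, 168 and 112 CPM with RSL3 (log2 fold change -1.19 ± 0.13, FDR = 0.00115). The groups did not overlap, and the log2 fold change was -0.98 without P4. Of 18 NF-kappa-B factors and inhibitors, 1 other gene was a DEG, NFKBIZ (1.20, FDR = 0.0102). Its call was lost without P4 (FDR = 0.078), without P7 (log2 fold change 0.85) and without the passage as a block (FDR = 0.074), and without P6 the list had 4 calls higher. NFKBIA, the gene of the inhibitor I-kappa-B alpha, was at 33, 29 and 30.9 CPM untreated and 44.8, 37.9 and 42.1 CPM with RSL3 (0.42, FDR = 0.0279).

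Among chromatin genes, 4 of 13 histone genes tested were called higher, H2AFJ at 7.28, 5.53 and 5.85 CPM untreated and 20.4, 11.2 and 13.5 CPM with RSL3 (log2 fold change 1.25 ± 0.15, FDR = 0.00175), HIST1H1C at 10.2, 7.35 and 6.93 CPM untreated and 73.7, 12.5 and 15.3 CPM with RSL3 (log2 fold change 1.63 ± 0.33, FDR = 0.0143), HIST1H2AC at 2.07, 0.429 and 0.398 CPM untreated and 16.7, 1.33 and 1.12 CPM with RSL3 (2.51, FDR = 0.00235) and HIST2H2BE (1.77, FDR = 0.00638). These 4 had their largest ratio in P4. For these and the lists that follow, the share of all tested genes called higher was 2.52%. All but H2AFJ lost their call without P4, at FDR values of 0.055 to 0.14, and without the passage as a block, at 0.093 to 0.19. Of 21 histone lysine demethylase genes, KDM7A was called higher (log2 fold change 1.03 ± 0.14, FDR = 0.00261), with a log2 fold change of 0.95 without P6 and an FDR of 0.099 without the passage as a block. HES1, a transcriptional repressor downstream of Notch, was the only DEG of 11 HES, ID and Notch genes, at 6.72, 6.87 and 12.3 CPM untreated and 19.3, 19.6 and 17.3 CPM with RSL3 (log2 fold change 1.16 ± 0.20, FDR = 0.00799), and its call was lost without P4 (FDR = 0.1) and without P6 (log2 fold change 0.98). Of 21 autophagy genes, GABARAPL1, which encodes a protein of autophagosome membranes, was called higher at 18.5, 13.3 and 13.7 CPM untreated and 88.6, 47.3 and 90.1 CPM with RSL3 (log2 fold change 2.27 ± 0.16, FDR = 2.51e-04) and kept its call in all 22 alternative fits.

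The lists of mitosis, DNA replication and housekeeping genes held no DEGs in the main analysis. Among 25 mitosis genes, 23 had a negative change, 8 had an FDR under 0.05, the median log2 fold change was -0.31, and edgeR, DESeq2 and limma-voom called 0, with 15 at an unadjusted p under 0.05 (28.7% of all tested genes). Those 8 all fell, and over all 13325 genes tested 753 fell at an FDR under 0.05. Without P6, edgeR called 3 mitosis genes and 1 DNA replication gene lower. PLK1, the kinase of mitotic entry, was at 203, 269 and 309 CPM untreated and 97.6, 201 and 146 CPM with RSL3 (-0.85, FDR = 0.0048) without overlap and was called without P6 (log2 fold change -1.08), and CCNB1, cyclin B1, was at 106, 133 and 187 CPM untreated and 57, 124 and 91.4 CPM with RSL3 (-0.68, FDR = 0.0263). Of 25 DNA replication genes, 0 were DEGs with any of these 3 tools, and 11 had an unadjusted p under 0.05. The same 3 tools gave 0 DEGs for 20 plasma cell genes, 21 genes of cholesterol synthesis, 16 ESCRT-III genes, 24 proteasome genes, 23 cytosolic ribosomal protein genes and 19 respiratory chain genes, which had 9, 7, 5, 7, 0 and 0 genes at an unadjusted p under 0.05, against 28.7% of all tested genes. The ribosomal protein genes lay within -0.03 and 0.10 on the log2 scale. In the remaining lists, CLK1 among 23 splicing regulators (1.16, FDR = 0.0328), SLC2A3 among 23 genes of glycolysis and NADPH production (1.87, FDR = 0.0206), and MXD1 (1.41, FDR = 0.025) among 11 genes of the MYC and MAX network were called higher, and MLXIP of the same network was called lower (-1.01, FDR = 0.0066). All 4 calls were lost without P4, at FDR values of 0.087 to 0.15, and those of CLK1, MXD1 and MLXIP also without P7. Calls over all tested genes were 2.52% higher and 0.42% lower. MYC itself was at 622, 652 and 738 CPM untreated and 537, 777 and 412 CPM with RSL3 (-0.27, FDR = 0.338).

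Beyond these lists, the DEGs with the smallest FDR included SCNN1G, a subunit of the epithelial sodium channel, at 31.6, 20.5 and 31.6 CPM untreated and 104, 64.7 and 104 CPM with RSL3 (log2 fold change 1.70 ± 0.10, FDR = 6.79e-05) and ARRDC3, an arrestin-like adaptor, at 35.8, 44.7 and 53.1 CPM untreated and 177, 130.3 and 266 CPM with RSL3 (log2 fold change 2.06 ± 0.15, FDR = 2.69e-04). NEAT1, the nuclear RNA that scaffolds paraspeckles, had one of the largest gains in CPM, at 571, 387 and 367 CPM untreated and 2470.3, 989.8 and 1706 CPM with RSL3 (log2 fold change 1.90 ± 0.16, FDR = 3.77e-04). Genes with hardly any count before treatment included DIO2, the deiodinase that activates thyroid hormone, with 1 count against 88 (ratio 88.4, 95% exact interval 15.5 to 3530.4), SOCS3, a feedback inhibitor of cytokine receptors, with 5 against 304 (ratio 61.1, interval 25.9 to 189) and RNF150 with 5 against 107 (ratio 21.5, interval 8.93 to 67.5). DIO2, SOCS3 and RNF150 passed the filter on low counts only through their RSL3 libraries and so had to differ. In 102 of the 336 genes called higher the untreated mean was under 1 CPM.

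The 56 genes called lower were smaller in number and change, with a median log2 fold change of -1.17 against 1.48 for those called higher. Those with the smallest FDR were ZNF740 at 242, 127 and 119 CPM untreated and 98.6, 67 and 51.8 CPM with RSL3 (log2 fold change -1.14 ± 0.10, FDR = 5.53e-04), CYP26A1, which degrades retinoic acid, at 115, 91.4 and 66.8 CPM untreated and 55.2, 43.9 and 34.4 CPM with RSL3 (log2 fold change -1.02 ± 0.10, FDR = 6.46e-04), PKDCC, a secreted kinase, at 13.8, 13 and 9.43 CPM untreated and 5.23, 4.15 and 3.26 CPM with RSL3 (log2 fold change -1.52 ± 0.15, FDR = 7.61e-04), SMTN (-1.17, FDR = 8.57e-04) and SOX2 (chromosome 3, 181429713 to 181432224), a stem cell transcription factor, at 76.5, 63.7 and 52.9 CPM untreated and 27.6, 33.9 and 23.7 CPM with RSL3 (log2 fold change -1.18 ± 0.13, FDR = 0.00101). HRH2, a histamine receptor, was at 294, 247 and 237 CPM untreated and 107, 140.0 and 112 CPM with RSL3 (log2 fold change -1.12 ± 0.12, FDR = 0.00115), FRMD6, an upstream component of Hippo signalling, at 52.2, 45.7 and 25.5 CPM untreated and 17.8, 18.1 and 13.8 CPM with RSL3 (log2 fold change -1.26 ± 0.14, FDR = 0.00123), and JRK (-1.20, FDR = 0.00115) and LRRC14B (-1.20, FDR = 0.00144) behaved alike. The largest falls in CPM also included CCNF, cyclin F, at 110.0, 134 and 146 CPM untreated and 46.7, 92.5 and 61.9 CPM with RSL3 (log2 fold change -1.0015 ± 0.14, FDR = 0.0033), HEMGN (-1.07, FDR = 0.00157) and FAM78A (-1.19, FDR = 0.00355). All RSL3 levels of these genes were below all untreated ones. Without P4, HRH2 (log2 fold change -0.95), HEMGN (-0.94), FAM78A (-0.97) and CCNF (-0.88) were inside the fold threshold, and CCNF was so without P7 as well (-0.87). ZNF740 had an FDR of 0.061 without the passage as a block.

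The largest fitted falls belonged to genes with few counts. LOC100129503 (-2.11, FDR = 0.00576), TUBB1, a beta tubulin of platelets (-2.06, FDR = 0.0264), LRFN1 (-1.68, FDR = 0.00411), LOC101929536 (-1.61, FDR = 0.0135), CDRT15P1 (-1.57, FDR = 0.0399), MIR25 (-1.30, FDR = 0.0299) and MSS51 (-1.30, FDR = 0.0221) were at 3.64 CPM or less in every library. Somewhat higher were MYCL, a MYC paralog, at 5.48, 3.76 and 3.24 CPM untreated and 2.46, 1.7 and 1.07 CPM with RSL3 (-1.27, FDR = 0.0066), PSRC1, a spindle protein, at 10.2, 11.5 and 12.9 CPM untreated and 3.58, 7.82 and 3.54 CPM with RSL3 (-1.27, FDR = 0.00936), POM121L1P (-1.38, FDR = 0.0101), CTBP1-AS (-1.37, FDR = 0.0102) and RAB3A, a GTPase of secretory vesicles (-1.36, FDR = 0.00529). MIR25 lies within the MCM7 gene and CTBP1-AS is named as antisense to one, and reads shared with the overlapping gene cannot be told apart where the use of strand is not given. Without P4, all of these genes except LRFN1 lost their call, at FDR values of 0.052 to 0.31. PSRC1, MIR25 and MSS51 lost it also without P7, and MIR25 and CDRT15P1 without P6.

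The response did not differ detectably from that of MM1S cells. The difference of the RSL3 response between the lines was tested gene by gene on the 12 untreated and RSL3 libraries, with the passage within each line as a block. Of 13958 genes tested, 0 (0.0%) were called by edgeR, 511 (3.66%) had an unadjusted p under 0.05 and the smallest FDR was 0.34, while DESeq2 called 2, HES1 and SERPINH1. All 392 MM1R DEGs were among the genes tested. In MM1S cells 383 of them changed in the same direction, 108 were also DEGs, and 39 had an unadjusted p under 0.05 for the difference. The genes with the smallest p for the difference (MM1R minus MM1S) were SERPINH1, the collagen chaperone HSP47, with a log2 fold change of 0.10 in MM1R cells and 3.07 in MM1S cells (difference -2.96 ± 0.38, FDR = 0.34), and HES1, with 1.17 and -0.68 (difference 1.85 ± 0.33, FDR = 0.959). TRNE (difference -0.98 ± 0.18), SCNN1G (0.70 ± 0.13) and PHLDA3 (-1.0002 ± 0.20) followed, each with an FDR of 0.959. A difference that misses the threshold in 3 against 3 passages does not show that the lines respond alike.

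The promoters of the DEGs were searched for the letters of 6 motifs on both strands. RefSeq promoters of 300 bases (GRCh38.p14) were matched by symbol for 10318 of the tested genes, 251 of those called higher and 43 of those called lower. AP-1 sites (TGANTCA) were in 11.2% of the promoters of genes called higher, 2.33% of those called lower and 4.59% of all. Heat shock elements (GAANNTTC) were in 7.97%, 4.65% and 4.61%, antioxidant response elements (TGACNNNGC) in 19.1%, 9.30% and 15.5%, and cAMP response elements (TGACGTCA) in 5.58%, 4.65% and 3.20%. Metal response elements (TGCGCNC or TGCACNC) were as common in promoters of genes called higher (38.6%) as in all (38.9%) and were in 30.2% of those called lower. The C/EBP-ATF element (TGATGNAAT) was in 0, 1 (2.33%) and 53 (0.51%) promoters. The AP-1 site and the antioxidant response element can share letters, as in TGACTCAGC, so their shares are not independent. A match is a description of the letters in the window and not a site of binding.

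**Figure D5:**
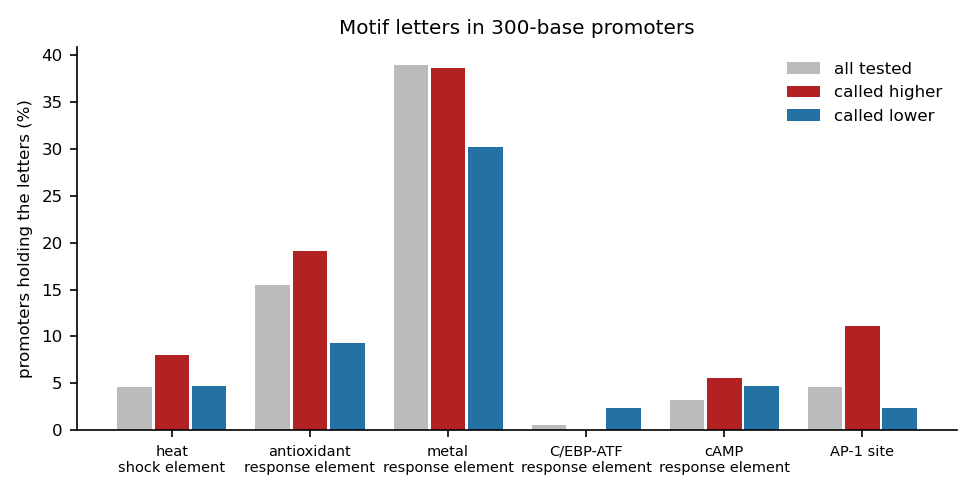
Percent of 300-base promoters that hold the letters of each motif on either strand, for all tested genes (grey, 10318 promoters), genes called higher (red, 251) and genes called lower (blue, 43). AP-1 sites stand at 11.2% in genes called higher against 4.59% in all, and metal response elements at 38.6% against 38.9%.

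Genes called higher spanned a median of 30.8 kb on the hg19 annotation and those called lower 10.5 kb, against 34.2 kb for all tested genes. Spans under 5 kb made up 15.6% of the genes called higher, 25.5% of those called lower and 8.71% of all. A position was found by symbol for 302, 47 and 11995 genes. Protein-coding genes were 94.0%, 87.2% and 94.1% of these.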

How the data were processed

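RNA from MM1 cells was sequenced by the authors with paired 50 bp reads (BGISEQ-500), and per the labels the reads were checked with FastQC 0.11.5 and aligned to hg19 with STAR 2.7.3a. The authors deposited raw read counts for 43735 genes and a table of normalized signal values, made by scaling the counts of every library by 1 constant (0.834 to 1.08). The counting tool, annotation and use of strand are not given in the sources used here, so genes with overlaps or close copies are uncertain. Columns were matched to samples by their labels.

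The counts of the 6 MM1R libraries without ferrostatin-1 were filtered with filterByExpr (minimum count 10), which kept 13325 genes holding 99.9% of the counts, and scaled by TMM (factors 0.939 to 1.05). RSL3 was compared with untreated cells by edgeR's quasi-likelihood test with a block for passage, where 2 residual degrees of freedom remain. Levels are TMM-scaled CPM, listed as P4, P6 and P7. Errors of fold changes are standard errors. Same-passage libraries deviated together from their group means (r = 0.458, 0.109 and 0.248), and the labels name the passage. Pairs of different passages had r from -0.404 to 0.205. The highest of these, untreated P7 with RSL3 P6, exceeded the pair of P6. The step was tested on simulated data with these library sizes and a 4-fold change. It called 198 of 200 changed genes (99%), with 2 false calls among 13173 genes tested. Recovery of smaller changes, or of changes that differ in size between passages, was not tested. Of the 336 genes called higher, 82 rose more than 4-fold. Intervals of ratios are exact binomial ones and cover counting error only. DESeq2 1.42.0, limma 3.58.1 and edgeR 4.0.16 were run in R 4.3.3.

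Named are the DEGs without overlap between groups that had the largest fold change, smallest FDR or largest CPM difference in each direction, up to 4 DEGs a gene list, members of the ferroptosis, iron, metallothionein, NR4A and AP-1 lists, and the genes with the smallest p for the difference between lines. Other genes, such as PPP1R15A, ATF4, IRF4 and PLK1, were named after their values were seen. The members and lists were chosen with earlier results of these data known, so the counts by list are descriptions without a test. The alternatives are other blocks, scalings, filters, tools, thresholds and left-out libraries. A list of mitochondrial transcripts had no member under its listed names. Promoters and gene positions were joined by symbol. A few genes that the rules cover are not reported here.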

Additional observations from a re-analysis of the deposited data

How the results depend on the processing

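The direction of the response was stable and the number of DEGs was not. Calls higher made up 77.7 to 91.3% of the DEGs in each fit with the main thresholds, against 85.7% in the main analysis. Without the replicate block there were 240 DEGs, 216 higher and 24 lower, of which 238 were shared with the 392. With all 18 libraries and no block there were 175 DEGs, 152 higher and 23 lower. With the FDR threshold alone there were 1668 genes, 915 higher and 753 lower, and with an FDR of 0.5 and the fold threshold 513 genes, 411 higher and 102 lower. Leaving out 1 passage, or 1 library in the fit without the block, gave 25 to 542 DEGs, 22 to 444 of them higher and 3 to 98 lower. The fewest came without untreated replicate 2 and no block (25), without RSL3 replicate 1 and no block (114) and without P4 (115), and the most without P6 (542). Each fit without a passage keeps 1 residual degree of freedom and estimates its own spread, so its calls do not reflect the passage left out alone. RLE or upper-quartile scaling, no filter, a strict filter, legacy quasi-likelihood, limma-voom, DESeq2 with or without the block, the authors' normalized values and the block with all MM1R or all 18 libraries gave between 289 and 428 DEGs. The libraries that enter the larger fits include the one labelled MM1R Fer-1 and RSL3 of P6, which held NR3C1 at 50.8 CPM and a median of 49.1% of the MM1S level over 12 genes that set the lines apart. Of the 125 DEGs named in the text, 96 were called without the block, 62 without P4, 119 without P6 and 106 without P7, and 13 in all 22 fits. Those not called without the block were ASNS, BACH2, CCNF, CDRT15P1, CHORDC1, CLK1, CTBP1-AS, FOSB, FTL, HIST1H1C, HIST1H2AC, HIST2H2BE, HSPB1, IRS2, KDM7A, LOC101929536, MIR25, MSS51, MX2, MXD1, MYCL, NFKBIZ, PSRC1, SLC30A1, SLC38A2, TUBB1, WTIP, XAF1 and ZNF740. Among genes that were not DEGs, leaving out 1 passage or library turned the direction of EGR1 (-0.22 to 1.37 on the log2 scale), MYC (-0.54 to 0.027) and SERPINH1 (-0.059 to 0.31). The difference between the lines gave 0 calls in every edgeR fit, with or without the block, and 2 with DESeq2.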

Other observations

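Some gene groups outside the lists above were assembled after the values of their members had been seen, so their counts are descriptions only. Among 33 interferon-induced genes tested, 12 were called higher, 30 had a positive change and the median log2 fold change was 0.56, and 11 of the 12 had their largest ratio in P4. Of all tested genes, 2.52% were called higher. Some of the 12, such as OASL and XAF1, had too few untreated counts to pass the filter without their RSL3 libraries. The count is therefore no measure of the group. MX1, an antiviral GTPase, was at 21.4, 18.9 and 19.9 CPM untreated and 101, 56 and 30.3 CPM with RSL3 (log2 fold change 1.48 ± 0.24, FDR = 0.00626), MX2 at 3.05, 2.79 and 1.93 CPM untreated and 23.7, 10 and 3.82 CPM with RSL3 (log2 fold change 2.06 ± 0.31, FDR = 0.0039), and XAF1, a pro-apoptotic interferon target, at 0.723, 0.429 and 0.398 CPM untreated and 7.95, 2.13 and 1.24 CPM with RSL3 (log2 fold change 2.75 ± 0.35, FDR = 0.00223). The P7 library with RSL3 was the lowest of the treated ones in these 3 genes, and all 3 lost their call without P4, at FDR values of 0.051 to 0.07. STAT4, a transcription factor activated by cytokines, was at 9.76, 8.75 and 7.73 CPM untreated and 54.2, 43.1 and 21.9 CPM with RSL3 (log2 fold change 2.11 ± 0.18, FDR = 4.19e-04).

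Among 25 genes known as FOXO targets, 12 were called higher, all 25 had a positive change and the median log2 fold change was 0.87. Of all tested genes, 2.52% were called higher and 0.42% lower. FBXO32, a muscle ubiquitin ligase, was at 13.1, 10.4 and 7.84 CPM untreated and 132, 23.8 and 86.5 CPM with RSL3 (log2 fold change 2.70 ± 0.37, FDR = 0.00293), PIK3IP1, an inhibitor of PI3 kinase, at 24.1, 17.5 and 18.2 CPM untreated and 93.3, 31.5 and 61.7 CPM with RSL3 (log2 fold change 1.53 ± 0.19, FDR = 0.00202), and IRS2, an adaptor of the insulin receptor, at 34.2, 24.5 and 19.4 CPM untreated and 73.6, 32.4 and 79.6 CPM with RSL3 (log2 fold change 1.18 ± 0.24, FDR = 0.0147), and the list shares GABARAPL1, KLF9, KLF2, BCL2L11 and SESN3 with the groups above. Without P4, FBXO32 (FDR = 0.058) and IRS2 (FDR = 0.12) were no longer called, and IRS2 was not called without P7 either (log2 fold change 0.77). Of 17 cyclic nucleotide phosphodiesterase and RGS genes, 6 were called higher, among them PDE4B at 15.2, 13.3 and 11.2 CPM untreated and 89.6, 49.1 and 181 CPM with RSL3 (log2 fold change 2.81 ± 0.32, FDR = 0.00134), PDE3B at 15, 13.5 and 13.4 CPM untreated and 49.6, 49.7 and 26.8 CPM with RSL3 (log2 fold change 1.54 ± 0.17, FDR = 0.00108) and PDE4D at 5.89, 3.17 and 2.56 CPM untreated and 14.5, 8.56 and 17.5 CPM with RSL3 (log2 fold change 1.80 ± 0.26, FDR = 0.00345), enzymes that degrade cyclic AMP. CXCR4, the chemokine receptor that holds myeloma cells in bone marrow, was at 20.4, 27.2 and 30.7 CPM untreated and 95, 59 and 220.0 CPM with RSL3 (log2 fold change 2.07 ± 0.26, FDR = 0.00209), and CCR2 was at 24.3, 23.4 and 19.3 CPM untreated and 9.45, 14.5 and 7.02 CPM with RSL3 (log2 fold change -1.16 ± 0.17, FDR = 0.00342), with an FDR of 0.058 without P4. Of 10 tubulin genes, TUBA1A (1.76, FDR = 0.00532) and TUBB2A (1.66, FDR = 9.23e-04) were called higher and TUBB1 lower. Groups of 3 libraries were too small for a test of single outlying libraries.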
